A study of Mus musculus with 6 samples.

Results

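The macrophage identity genes Adgre1, Mpeg1, Mrc1, Msr1 and Siglec1, the C1q chain genes C1qa, C1qb and C1qc, and the versican gene Vcan were followed as 9 genes of the 18194 measured. They were taken as every probe set of the array annotated to one of these symbols alone, which gave 23 of 45101 probe sets. The samples were 6 mouse leukemias of the C57BL/6 strain, all carrying the leukemia fusion gene MLL-ENL. In the 3 labelled Runx1-KO the Runx1 gene of the donor bone marrow had been excised, and in the 3 labelled Control it was intact. Runx1 encodes a transcription factor of blood development. The bone marrow cells received MLL-ENL, were transplanted into congenic mice and were collected as independent leukemias when the recipients were moribund, at an age and purity that the labels leave out. Whether host cells were removed before RNA extraction is likewise unknown. Values were linear fluorescence intensities of a 1-colour array, and each difference is a log2 value with Control subtracted from Runx1-KO.

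Macrophages are recognised by surface receptors that bind sugars, lipids and dying cells, and by proteins for killing and clearing what they engulf. Adgre1 encodes F4/80, an adhesion-class receptor used as the standard surface mark of mouse macrophages. C1q, which binds antibody complexes and dying cells and starts the classical complement pathway, is assembled from A, B and C chains encoded by separate genes, and macrophages are a main source of it. In a bulk sample the cells that gave the RNA are unknown and can include the leukemia cells. Fewer macrophages and less RNA per cell of any type therefore cannot be told apart.

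The 3 C1q chain genes follow one another on mouse chromosome 4, in the order C1qb, C1qc, C1qa, with no other protein-coding gene between them in the RefSeq annotation. Promoter sequences from RefSeq (build GRCm38.p6) were found for 5 of the 9 genes, C1qb, C1qc, Mrc1, Mpeg1 and Vcan. The 250 bases before the start of C1qb, C1qc and Mrc1 are shown because these windows held the motifs searched. They also set C1qb and Mrc1, whose groups did not overlap, beside C1qc, the neighbour of C1qb, whose groups overlapped. Capitals mark the RUNX motif TGTGGT, the ETS motif AGGAAGT bound by PU.1 and its relatives, and the MAF half-site TGCTGA, on either strand, none overlapping another.
C1qb, chr4:136886201-136886450, minus strand: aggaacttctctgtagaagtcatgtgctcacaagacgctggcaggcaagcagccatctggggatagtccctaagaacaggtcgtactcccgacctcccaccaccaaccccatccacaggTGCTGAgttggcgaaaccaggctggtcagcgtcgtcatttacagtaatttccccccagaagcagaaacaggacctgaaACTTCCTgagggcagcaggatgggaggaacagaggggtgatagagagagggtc
C1qc, chr4:136892915-136893164, minus strand: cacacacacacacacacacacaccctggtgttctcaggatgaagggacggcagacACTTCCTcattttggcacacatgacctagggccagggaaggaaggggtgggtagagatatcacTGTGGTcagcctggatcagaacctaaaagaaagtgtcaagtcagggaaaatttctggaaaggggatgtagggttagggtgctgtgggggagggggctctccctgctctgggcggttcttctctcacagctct
Mrc1, chr2:14229164-14229413, plus strand: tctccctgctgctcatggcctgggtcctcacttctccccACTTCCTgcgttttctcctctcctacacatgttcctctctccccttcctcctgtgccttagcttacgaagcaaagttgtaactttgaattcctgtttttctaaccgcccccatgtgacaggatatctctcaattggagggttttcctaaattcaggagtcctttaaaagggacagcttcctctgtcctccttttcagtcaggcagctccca
C1qb held the ETS motif 53 bases and the MAF half-site 131 bases before the start. C1qc held the RUNX motif 132 bases and the ETS motif 195 bases before it, and Mrc1 held the ETS motif 211 bases before it. The Mpeg1 and Vcan windows held none of these letters. Of 32851 promoter windows of the same length, 14.0% held the RUNX motif, 7.69% the ETS motif and 16.1% the MAF half-site. The motifs were chosen with the sequences in view, and a match describes letters, not a bound site.

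Runx1 itself read 1128, 1573 and 1629.5 in arrays labelled Runx1-KO, against 680.3, 1021 and 850.0 in Control (limma adjusted p = 0.322). The sources used here do not place its probe sets relative to the excised part, so this signal, higher where the gene was excised, neither bears out nor refutes the labels. Xist was 1624, 1857 and 1895 in arrays labelled Runx1-KO and 330.8, 85.4 and 25.3 in Control, and the Y-linked gene Eif2s3y was 5.29, 6.31 and 3.98 in arrays labelled Runx1-KO against 683.6, 638.0 and 706.7 in Control. Sex and genotype therefore cannot be told apart in any comparison here. The brightest of 27 control probe sets for bacterial transcripts, dim on every array, gave each array a background limit, 14.1 to 22.5, and 57.4% to 64.7% of genes lay above it. Ctsg, a protease gene that marks promyelocytes, was high in all 6 arrays, at 3539, 3283 and 3475 in arrays labelled Runx1-KO and 3390.5, 4729 and 3749.6 in Control.

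Adgre1, Mpeg1, Msr1 and C1qb were above the limit on all 6 arrays, 4 of 9 genes, though Msr1 only just in Runx1-KO 1 (17.5 against a limit of 17.0). Mrc1, Siglec1, C1qc and Vcan were above it on some arrays, and C1qa was below it on all 6. On the differences, 8 of 9 genes were lower and 1, Vcan, was higher in arrays labelled Runx1-KO, where 50.8% of all genes were lower. By limma with Benjamini-Hochberg adjustment over all genes 0 of 9 passed at 0.05, where 0.0879% of all genes did. At an unadjusted p under 0.05 there were 5 lower and 0 higher, against 7.01% and 5.62% of all genes. The same 5 genes, Adgre1, Mpeg1, Mrc1, C1qa and C1qb, had every array labelled Runx1-KO below every Control array, as had 11.7% of all genes, and 0 lay above Control on every array, as did 9.17%. These genes were chosen with such results known, so the counts describe them and support nothing further. The median log2 difference of the 9 was -0.99, or -0.58 over the 8 above the limit somewhere and -0.02 with dim genes at their bound or at 0, against -0.01 over all genes.

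**Figure D1:**
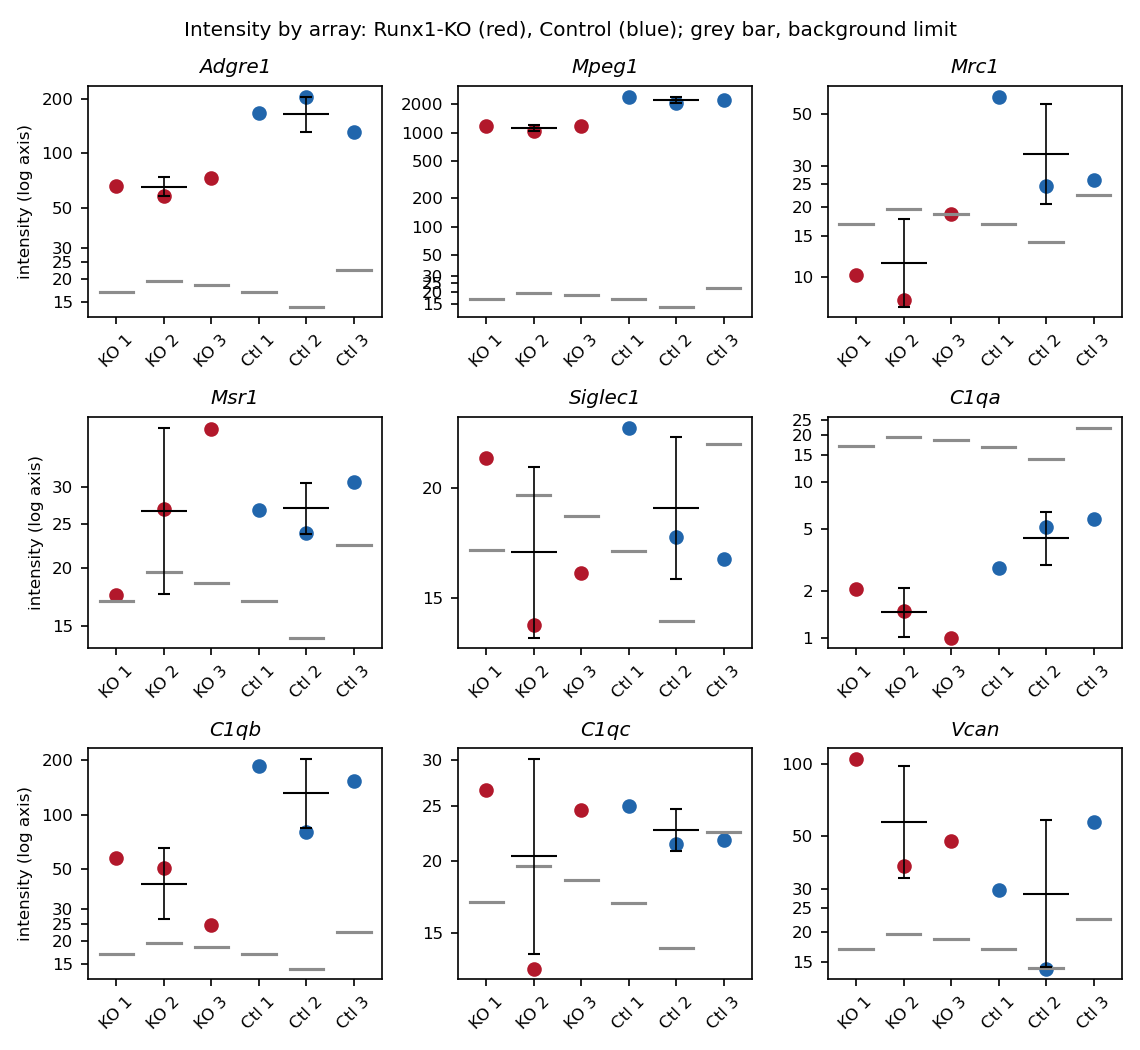
Intensity of the 9 genes on each array (log axes, each with its own scale), with arrays labelled Runx1-KO in red at the left of each panel and Control in blue at the right. Black bars are geometric means with 1 SD of the log2 values (n = 3 each) and grey bars the background limit of each array. Adgre1 and Mpeg1 stand far above the limit with the groups apart, C1qa lies below the limit throughout, and Siglec1 and C1qc straddle it.

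Among the surface receptors, Adgre1 was the clearest. Its intensity was 66.3, 57.9 and 73.0 in arrays labelled Runx1-KO, against 167, 205.0 and 131 in Control. All 3 arrays labelled Runx1-KO lay below all 3 Control arrays, and all 6 lay above their limits. The log2 difference was -1.33 ± 0.23 (SE, n = 3 per group), or 2.52-fold lower, which did not pass over all genes (limma adjusted p = 0.154). It kept its direction in 17 of 17 alternative settings, from -1.50 to -1.15, with adjusted p-values between 0.0639 and 0.381. Adgre1 stood at rank 121 of 18194 genes by p.

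Mrc1 encodes the mannose receptor CD206, which takes up glycoproteins ending in mannose. It read 10.3, 8.04 and 18.7 in arrays labelled Runx1-KO, against 59.4, 24.6 and 26.2 in Control. Only Runx1-KO 3 lay above its limit among arrays labelled Runx1-KO, and only just (limit 18.6), while 3 of 3 Control arrays were above theirs. Mrc1 was therefore at least 1.83-fold lower, with a fitted difference of -1.54 ± 0.47 (limma adjusted p = 0.298). Control 1 was its highest array, and without that array the fitted difference was -1.13.

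Msr1 encodes scavenger receptor A, which binds modified lipoproteins and bacterial surfaces. On its brightest probe set it read 17.5, 27.0 and 40.3 in arrays labelled Runx1-KO and 26.8, 23.9 and 30.8 in Control. The groups overlapped fully, with a log2 difference of -0.02 ± 0.33 (adjusted p = 0.990). Its sign depended on the arrays used, at 0.29 without Runx1-KO 1 and 0.08 without Control 3. All 4 Msr1 probe sets had differences below 0, from -0.85 to -0.02, but none had groups apart and 1 was below the limit on all 6 arrays.

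Siglec1 encodes sialoadhesin (CD169), a sialic acid-binding receptor of macrophages in marrow, spleen and lymph node. It read 21.6, 13.9 and 16.001 in arrays labelled Runx1-KO and 23.4, 17.6 and 16.6 in Control, above the limit on 1 of 3 arrays labelled Runx1-KO and 2 of 3 Control arrays. The groups overlapped (-0.17 ± 0.25, adjusted p = 0.821), and no fold can be stated so close to background. Its other 2 probe sets differed by -0.13 and -0.92, the last below the limit on every array.

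Mpeg1 encodes perforin-2, a pore-forming protein that macrophages use against engulfed bacteria. It was 1165, 1046 and 1189.9 in arrays labelled Runx1-KO, against 2426, 2078 and 2251 in Control. The lowest Control array thus lay well above the highest array labelled Runx1-KO, and the SD of the log2 values was 0.10 in arrays labelled Runx1-KO and 0.11 in Control. The log2 difference was -0.99 ± 0.18, or 1.99-fold lower (limma adjusted p = 0.154). With a variance trend and robust fitting it passed over all genes (adjusted p = 0.00846, where 104 genes passed), as it did with an offset of 16 before the log (adjusted p = 0.0352). In the 6 fits that each left out 1 array its adjusted p ran from 0.160 to 0.405.

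Exact permutation over the arrays, two-sided, gave p = 0.1 for Adgre1, Mpeg1, Mrc1, C1qa and C1qb, the smallest value that 3 arrays against 3 allow.

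Of the C1q chains, only C1qb gave a signal above the limit on all arrays. Its brightest probe set, 1437726_x_at, read 57.8, 50.7 and 24.7 in arrays labelled Runx1-KO, against 185, 80.1 and 154 in Control. The groups did not overlap, although Control 2 stood nearer to Runx1-KO 1 than to the other Control arrays. The difference was -1.66 ± 0.45, or 3.16-fold lower (limma adjusted p = 0.264).

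The second probe set, 1434366_x_at, read 49.3, 39.2 and 14.8 in arrays labelled Runx1-KO and 150.1, 70.8 and 137 in Control, with a difference of -1.89 ± 0.53, or at least 3.43-fold lower (adjusted p = 0.311 over all probe sets). It ranked the 3 arrays of each group as the first did, with Runx1-KO 3 below its limit. The suffix x marks probe sets with probes that can match other transcripts too. The third, 1417063_at, without that suffix, read 27.8, 27.6 and 21.2 in arrays labelled Runx1-KO and 46.5, 20.6 and 45.9 in Control, and its groups overlapped because of Control 2 (-0.48 ± 0.37, adjusted p = 0.665). The C1qb difference thus depended on the probe set, and over the mean of the 3 it was -1.34.

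The A and C chains did not bear a matching signal. C1qa was 2.07, 1.49 and 1 (the floor) in arrays labelled Runx1-KO and 2.79, 5.17 and 5.78 in Control. Every value lay below its array's limit, so the separation of the groups (-1.58 ± 0.39, adjusted p = 0.232) is one of background signal and gives no fold. C1qc read 26.6, 12.992 and 24.6 in arrays labelled Runx1-KO and 24.998, 21.4 and 21.8 in Control. Its groups overlapped (-0.15 ± 0.31, adjusted p = 0.872), with 2 of 3 arrays above the limit in each group, and the difference was 0.17 without Runx1-KO 2. The name C1q therefore rests here on 1 chain of the protein.

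Vcan encodes versican, a large proteoglycan that binds hyaluronan in the extracellular matrix and is made by monocytes in human blood. Its sign was opposite to that of the macrophage genes. On its brightest probe set it read 105, 37.4 and 47.9 in arrays labelled Runx1-KO, against 29.9, 14.0 and 57.2 in Control. Control 3 exceeded 2 of the 3 arrays labelled Runx1-KO, so the groups overlapped. The fitted difference was 0.99 ± 0.61, or at least 1.99-fold higher with Control 2 raised to its limit (adjusted p = 0.544). That bound allows for detection only, not for the spread between arrays. Without Runx1-KO 1, the highest array, the fitted difference was 0.55, and without Control 2, the lowest, 0.47. Of 8 probe sets 7 differed above 0, but 5 of the 8 were below the limit on every array. The 3 brighter ones overlapped between groups, with fitted differences of 0.70 to 1.43 and bounds of at least 1.57-fold to at least 1.99-fold higher.

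Over all 23 probe sets, 16 were lower and 7 higher, where 49.8% of all probe sets were lower, and 0 passed with adjustment over all probe sets, where 0.0687% did. At an unadjusted p under 0.05 there were 6 lower and 1 higher, against 6.13% and 5.23% of all probe sets. Groups lay apart in 6 lower probe sets and 1 higher, against 10.6% and 8.61%, and that higher one, 1433044_at of Vcan, was below the limit on every array. In all, 8 of the 23 were below the limit throughout.

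**Figure D2:**
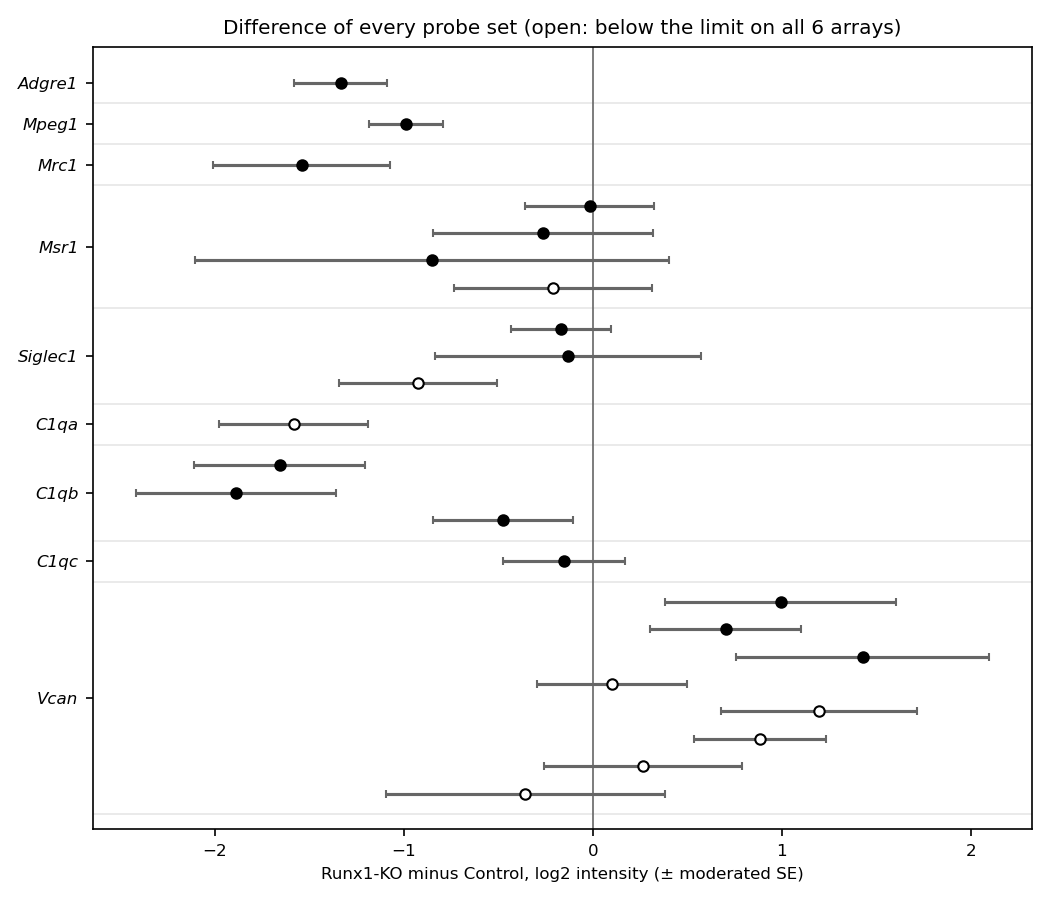
Log2 difference, Runx1-KO minus Control, of each of the 23 probe sets with its moderated SE (limma over all probe sets, n = 3 per group), grouped by gene and ordered by brightness within a gene. Open circles were below the limit on all 6 arrays. Adgre1, Mpeg1 and Mrc1 have 1 probe set each, C1qb has 2 of 3 at -1.66 and -1.89, and 7 of 8 Vcan probe sets lie above 0.

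The arrays were not equal in other ways. Erythroid genes summed to 1053 to 1307 in arrays labelled Runx1-KO, and to 9571 in Control 1 against 870.5 and 1159.5 in the other Control arrays. Without Control 1 the difference was -1.32 for Adgre1, -0.93 for Mpeg1, -1.41 for C1qb and -1.91 for C1qa. Gapdh, whose 3' and 5' ends are read by separate control probe sets to show RNA breakdown, had a 3' over 5' ratio of 7.10 in Runx1-KO 1 and 2.67 to 3.02 in the other 5 arrays. Without Runx1-KO 1 the differences were -1.34 for Adgre1, -1.01 for Mpeg1, -1.46 for Mrc1 and -1.89 for C1qb. The number of the 9 genes with arrays labelled Runx1-KO all below Control was 5 without Control 1, where 15.4% of all genes were, 6 without Runx1-KO 1 (20.5%) and 6 without both (25.4%).

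Lists of related genes were set beside the 9. They had been chosen with earlier results of these data known, and the members of each that are named were those of lowest p above the limit. In none of the 16 lists did a gene pass over all genes by limma, so each count below is at an unadjusted p under 0.05 and each named gene is given with its values only. Over all genes, 50.8% were lower, and at that unadjusted threshold 7.01% were lower and 5.62% higher.

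Scavenger and lectin receptors, which bind microbes, modified lipoproteins and debris, were lower in 15 of 20, with 6 lower and 1 higher at the unadjusted threshold and a median of -0.76 (-0.59 with dim genes at their bound). Clec7a, which encodes the fungal glucan receptor Dectin-1, was 61.4, 43.6 and 123 in arrays labelled Runx1-KO, against 334, 238 and 371 in Control. Those groups were apart, at -2.16 ± 0.42 (adjusted p = 0.186). Stab1, a clearance receptor, differed by -1.02 ± 0.23 (adjusted p = 0.207). Cxcl16, a membrane chemokine that also binds oxidised lipoprotein, was below the limit on all arrays labelled Runx1-KO and at least 1.01-fold lower.

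The complement list, without the C1q chains, had 16 of 24 genes lower, 4 of them and 0 higher genes at the unadjusted threshold, and a median of -0.08, with 8 below the limit on every array, 2 of the 4 called among them. The C1q-associated protease genes C1ra and C1s1 were both below the limit everywhere. Cfp encodes properdin, which stabilises the alternative pathway convertase. It was 365, 442 and 385 in arrays labelled Runx1-KO, against 814, 653 and 809.7 in Control (-0.93 ± 0.19, adjusted p = 0.192). Cd93, a surface protein of myeloid and endothelial cells, differed by -0.80 ± 0.18 (adjusted p = 0.221). The convertase component gene Cfb had the opposite sign, at 0.57 ± 0.27 (adjusted p = 0.444).

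Genes of the CSF1 axis and of macrophage transcription factors were mixed, with 7 of 20 lower, 5 lower and 1 higher at the unadjusted threshold and a median of 0.11. Irf8, a factor that steers progenitors to the monocyte fate, was 309, 183 and 284 in arrays labelled Runx1-KO, against 617, 442 and 874 in Control (-1.30 ± 0.34, adjusted p = 0.250). Mitf, a basic helix-loop-helix factor, differed by -1.53 ± 0.35 (adjusted p = 0.221), and Csf1r, the receptor through which macrophages receive CSF1, by -0.87 ± 0.21 (adjusted p = 0.226). All 3 had groups that did not overlap.

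Genes for the engulfment of apoptotic cells divided by direction, with 13 of 23 lower, 3 lower and 3 higher at the unadjusted threshold and a median of -0.07. Itgb5, an integrin chain that binds the bridging protein MFG-E8, was 76.2, 76.4 and 69.3 in arrays labelled Runx1-KO, against 193, 219 and 171 in Control (-1.39 ± 0.18, adjusted p = 0.104). Mfge8, which encodes that bridging protein, stood opposite at 291, 314 and 263 in arrays labelled Runx1-KO against 145, 107 and 205 in Control (0.97 ± 0.28, adjusted p = 0.284). Stab1, already given among the scavenger receptors, was the other gene of lowest p.

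Versican and hyaluronan partners had 11 of 22 lower, 0 lower and 3 higher at the unadjusted threshold and a median of -0.03, and 10 were below the limit throughout. Of the 3 higher, Hapln2 and Lyve1 were below the limit on all 6 arrays, so that no fold can be given. Adamts1, a protease that cuts versican, was above the limit on 1 array labelled Runx1-KO and on 0 Control arrays. No fold can be given for it either. The hyaluronan receptor gene Hmmr differed by -0.97 ± 0.49 (adjusted p = 0.467), with overlapping groups. Tnfaip6, a hyaluronan-binding secreted protein, differed by 0.70 ± 0.49, or at least 1.602-fold (adjusted p = 0.592), and its groups overlapped too. It read 80.5, 24.9 and 24.9 in arrays labelled Runx1-KO and 19.5, 27.8 and 21.5 in Control, so only Runx1-KO 1 lay above every Control array.

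Structural relatives of the 9 genes, such as other siglecs, mannose receptor family genes and C1q-domain genes, had 15 of 25 lower, 1 lower and 2 higher at the unadjusted threshold and a median of -0.17 (0 with dim genes at their bound). The called genes were 4% lower and 8% higher of the list, close to the shares over all genes. Marco, a class A scavenger receptor like Msr1, lay above the limit on 2 of 3 arrays labelled Runx1-KO and was lower by at least 1.41-fold. C1ql3, a secreted C1q-domain protein known from brain, was at least 1.17-fold higher with 1 of 3 Control arrays above the limit. Siglecg, a B-cell siglec, had overlapping groups at 1.599 ± 0.66 (adjusted p = 0.395).

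**Figure D3:**
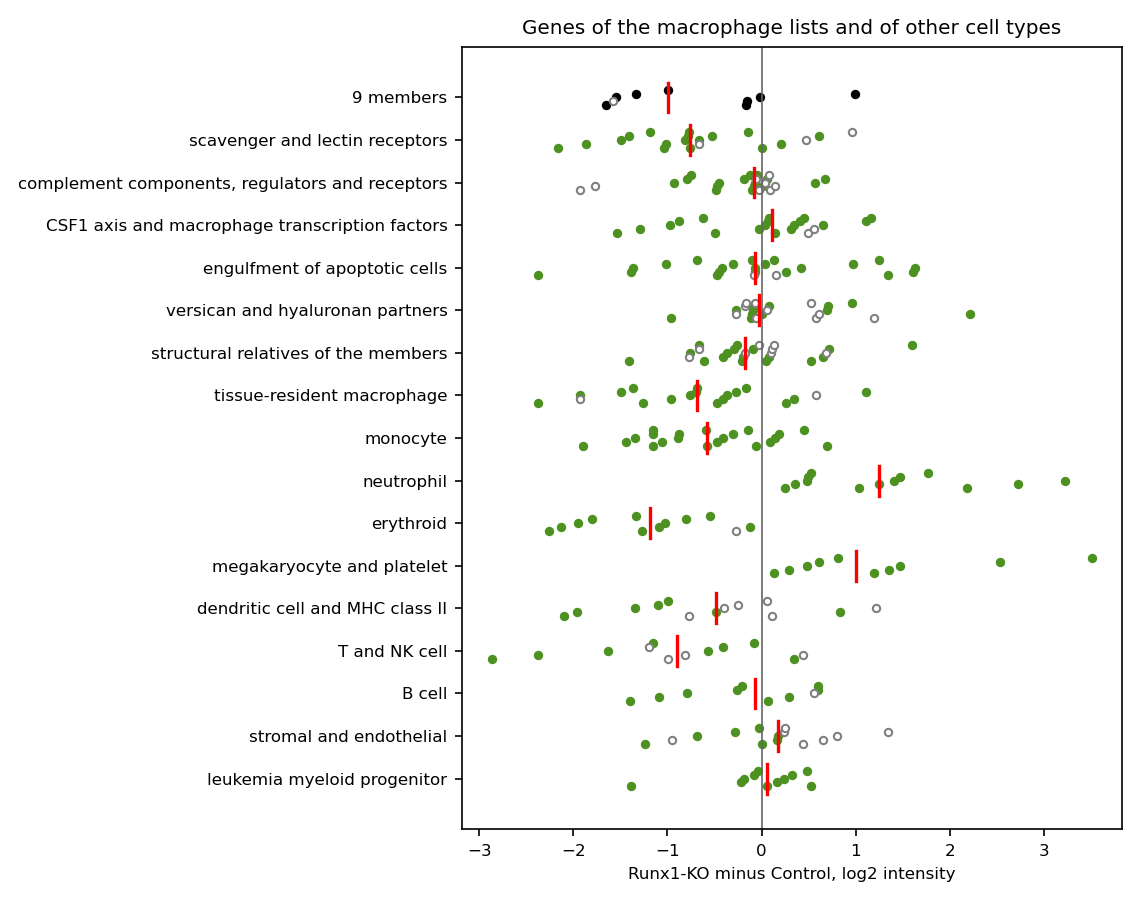
Log2 difference, Runx1-KO minus Control, of every measured gene of the 9 members, the 6 related lists and the 10 cell type marker lists, 1 point per gene. Open circles were below the limit on all 6 arrays and red bars are list medians. The scavenger receptor, tissue-resident macrophage and monocyte rows lean below 0 (medians -0.76, -0.68 and -0.58), as does the dendritic cell row (-0.48). The erythroid and T and NK cell rows lie lower still (-1.18 and -0.90), though the erythroid median is 0.14 without Control 1. With dim genes at their bound or at 0, the T and NK cell and dendritic cell medians are 0. The tissue-resident macrophage median is then -0.28 and the erythroid median -0.46, while the monocyte median stays at -0.58. The neutrophil and platelet rows lie above 0 (1.25 and 1.004).

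Markers of tissue-resident macrophages, as of splenic red pulp and marrow, summed to 2572 to 3775 in arrays labelled Runx1-KO and to 5109.7 to 7441 in Control. The gap between those sums rested on Hpgd. Without it they were 2393, 1556 and 1954 in arrays labelled Runx1-KO and 4363, 1747 and 3224 in Control, so Control 2 lay among arrays labelled Runx1-KO. Of the 19, 15 were lower, 6 lower and 2 higher at the unadjusted threshold, with 1 of each below the limit throughout. The median was -0.68, or -0.41 without Control 1 and -0.28 with dim genes at their bound or at 0. Hpgd, which degrades prostaglandins, was 1382, 1016 and 1704 in arrays labelled Runx1-KO, against 3078, 3363 and 3211 in Control (-1.27 ± 0.24, adjusted p = 0.179). The engulfment receptor gene Axl differed by -1.37 ± 0.49 (adjusted p = 0.348), with overlapping groups. It was above the limit on 0 of 3 arrays labelled Runx1-KO and 2 of 3 Control arrays, so no fold can be given. Spic, the factor that specifies red pulp macrophages, had the opposite sign, at 26.3, 13.1 and 28.3 in arrays labelled Runx1-KO and 11.971, 6.64 and 12.3 in Control, above the limit on 2 of 3 arrays labelled Runx1-KO and 0 of 3 Control arrays.

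Monocyte markers summed to 15114 to 17122 in arrays labelled Runx1-KO and 17397 to 24737 in Control, with 16 of 21 lower, 8 lower and 0 higher at the unadjusted threshold. Their median was -0.58, or -0.28 without Control 1. Ms4a6b, a membrane protein gene of the MS4A cluster, was 641, 359 and 472 in arrays labelled Runx1-KO, against 1422, 1285 and 1197 in Control (-1.44 ± 0.26, adjusted p = 0.156). Ms4a6c of the same cluster differed by -1.15 ± 0.27 (adjusted p = 0.222), and Csf1r was the third gene by p.

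Neutrophil markers differed between the groups in the opposite sense. They summed to 17582 to 20219 in arrays labelled Runx1-KO and 9321 to 14238 in Control, with 13 of 13 higher and 8 at the unadjusted threshold. The granule protein gene Ngp was 4.54-fold higher (adjusted p = 0.142), the decoy interleukin-1 receptor gene Il1r2 9.35-fold (adjusted p = 0.108) and the chemokine receptor gene Cxcr2 at least 5.84-fold (adjusted p = 0.0523). Megakaryocyte and platelet markers summed to 849.8 to 1331 in arrays labelled Runx1-KO against 486 to 749 in Control. All 10 of 10 were higher, 4 of them at the unadjusted threshold, among them Thbs1 (at least 7.42-fold), Selp (at least 4.63-fold) and F2r (at least 2.12-fold). The part of these cell types in the macrophage gene differences was not tested.

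Dendritic cell and MHC class II markers summed to 418 to 692 in arrays labelled Runx1-KO and 949 to 1725 in Control, and T and NK cell markers to 278 to 326 in arrays labelled Runx1-KO against 382 to 465 in Control. Of the first list 9 of 13 were lower, with 2 lower and 1 higher at the unadjusted threshold and 6 below the limit on every array. Its median was -0.48, or -0.21 without Control 1 and 0 with dim genes at their bound or at 0. First by p were H2-DMa (2.54-fold lower), H2-Ab1 (2.14-fold lower) and H2-Eb1. H2-Eb1 was above the limit on 0 arrays labelled Runx1-KO and on 1 Control array, Control 1 (72.3). No fold can be given for it, and its limma adjusted p was 0.417. Of the second 10 of 12 were lower, with 7 lower and 0 higher at the unadjusted threshold, 3 of the 7 below the limit on every array. Those 7 were 58.3% of the list, against 38.1% lower in the monocyte list and 31.6% in the tissue-resident macrophage list. All 7 were below the limit on every array labelled Runx1-KO. With dim genes at their bound or at 0 the T and NK cell median was 0. It was -0.58 for monocyte markers and -0.28 for tissue-resident macrophage markers. First by p were the granzyme gene Gzma, the surface antigen gene Cd5 and the receptor chain gene Cd3e. Each was above the limit on 2 of 3 Control arrays, so no fold can be given for them. Erythroid markers were lower in 12 of 12, with 0 at the unadjusted threshold and Epor, Klf1 and Sptb first by p, but this count rested on Control 1. Without that array 6 were lower and 6 higher, with a median of 0.14. B cell markers were lower in 5 of 10, with Vpreb1, Ebf1 and Igll1 first by p, and summed to 470 to 805 in arrays labelled Runx1-KO and 467 to 1778 in Control. Stromal and endothelial markers were lower in 5 of 14, with Pecam1, Pdgfrb and Col1a2 first, and summed to 297 to 388 in arrays labelled Runx1-KO against 244 to 553 in Control. Markers of the leukemic progenitors, with Cd34, Mpo and Meis1 first, were lower in 5 of 11 with a median of 0.06, and summed to 20053 to 21702 in arrays labelled Runx1-KO against 16719 to 26116 in Control. At the unadjusted threshold the B cell list had 1 lower and 0 higher, the stromal and endothelial list 0 lower and 1 higher, and the progenitor list 1 lower and 0 higher.

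**Figure D4:**
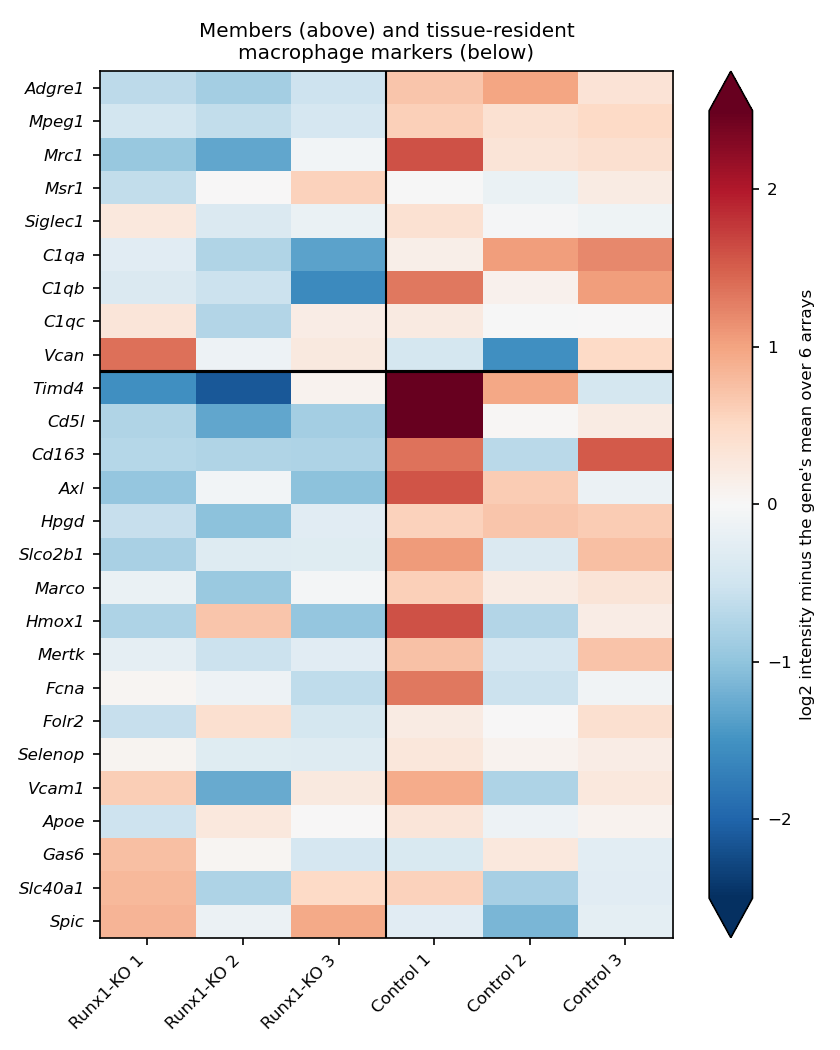
Log2 intensity of the 9 members (above the line) and of the 17 tissue-resident macrophage markers above the limit on some array (below it), each minus its own mean over the 6 arrays, with arrays labelled Runx1-KO at the left and Control at the right. Adgre1, Mpeg1 and Hpgd are high in all 3 Control arrays. C1qb, Cd163 and Mertk are high in Control 1 and Control 3 but not in Control 2, and Timd4 and Cd5l are highest in Control 1.

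The profiles of the 9 genes over the arrays were compared by the root mean square difference of log2 values, each gene centred on its own mean. Adgre1 and Mpeg1 differed by 0.29, while Adgre1 and Vcan differed by 1.46. C1qb and Mpeg1 differed by 0.61. Distances to C1qa and C1qc are not read here, because those probe sets lay below the limit on some or all arrays. The distances of Mrc1 and Vcan also draw on background values. Mrc1 was above the limit on 1 of 3 arrays labelled Runx1-KO and Vcan on 2 of 3 Control arrays. Among 11417 other genes above the limit on at least 3 arrays, those nearest to Adgre1 were Tsga10 (0.078), Nbeal1 (0.087) and Taz (0.13). The nearest to C1qb were Irf2 (0.24), Cyp27a1 (0.28) and Ccl5 (0.30), and to Mrc1 Trpm2, 2810408B13Rik (0.31 for both) and Fahd1 (0.32). Vcan was nearest to Ppargc1b (0.21), Gm15972 (0.29) and Mylip (0.30). These are likenesses over 6 arrays only and share the difference between the groups.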

How the data were processed

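Gene expression was measured in 3 leukemias labelled Runx1-KO and 3 labelled Control. Per the labels' protocols, total RNA was column-purified and its cDNA fragmented and labelled with biotin. The deposited values were linear intensity values per probe set, already on a common scale (medians 24.4 to 26.0) with a floor of 1, to which 1 lower value was raised. The labels do not say how the authors summarised, background-corrected or normalized them.

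Of 45101 probe sets, 34958 had 1 symbol in the platform annotation, 932 several and 9211 none. Each of 18194 genes was represented by the probe set of highest mean log2 intensity. Log2 values were compared with limma 3.58.1 (lmFit and eBayes, no covariate, two-sided) in R 4.3.3, with Benjamini-Hochberg adjustment over all genes or all probe sets, after the script was tested on simulated data. Dim means at or below the spike-in limit on all arrays of a group. Where some arrays of the lower group were at or below their limits, they were raised to their limits and the fold is a lower bound. Such a bound allows for detection only, not for the spread between arrays. Fitted differences of such genes are not bounds. Values of the higher group were kept as read. Where any of these lay at or below its limit no fold is stated, though medians at the bound use such genes too. The number of arrays limits the precision.

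The members, gene lists and tests were chosen with earlier results of these data known. The 9 members were all named with each probe set. From each list the 3 genes of lowest p not dim in both groups were named. For Adgre1, C1qb, Mrc1 and Vcan the 3 genes of nearest profile were also named. Cd163, Cd5l, Colec12, Fn1, Mertk, Timd4, C1ra, C1s1 and Eif2s3y were named after their values were seen. Across the lists, 21 entries had no probe set of their own here. The alternatives were quantile normalization, median centring, a filter on dim genes, the mean of probe sets, all probe sets, an offset of 16, a trended robust fit, array weights, a replicate block, and fits without each array or without both arrays numbered 1.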

Additional observations from a re-analysis of the deposited data

How the results depend on the processing

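The 16 genes past the threshold became 25 without genes dim on every array, 31 over all probe sets, 64 with an offset of 16, 104 with a trended robust fit and 71 with array weights, and 2 to 3 when any 1 array was left out. Without both arrays numbered 1 limma called 0 genes (2318 at an unadjusted p under 0.05). With the replicate block it called 0 (1929 at an unadjusted p under 0.05), but same-numbered arrays did not deviate together (correlations of -0.01, -0.09 and 0.04), so the numbers were not treated as pairs. Mpeg1 passed with the offset (-0.98) and with the trended robust fit (-0.99). Msr1 changed sign with the offset (0.0069), with array weights (0.32) and without both arrays numbered 1 (0.28), and ran from -0.31 to 0.29 with 1 array left out. C1qc changed sign with array weights (0.024) and ran from -0.34 to 0.17 with 1 array left out. The median of the 9 genes moved to -0.58 without genes dim on every array, likewise over the 8 genes above the limit on some array of each group (chosen after the data were seen), and to -0.23 with the offset. The cause of these shifts was not tested, beyond the fewer genes or arrays in some fits. With the probe set of highest mean linear intensity, chosen after the data were seen, 13 genes passed and Msr1 was -0.26. Differences of Adgre1, Mpeg1, Mrc1, Siglec1, C1qa, C1qb and Vcan kept their sign in every alternative run, but not their size. The offset moved C1qa to -0.23, Mrc1 to -0.85 and Siglec1 to -0.09, the mean of probe sets moved Siglec1 to -0.41 and Vcan to 0.65, and with 1 array left out Siglec1 ran from -0.35 to -0.01 and Vcan from 0.47 to 1.49. With 5 of 9 genes below the limit on some or all arrays, the array gives only bounds, or no fold, for those genes.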

Other observations

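Some clearance genes and the matrix gene Fn1 were uneven among the Control leukemias, and all were picked after their values were seen. Cd163, the receptor for haemoglobin-haptoglobin complexes, was 261, 253 and 248 in arrays labelled Runx1-KO and 1098, 268 and 1237 in Control, so that Control 2 lay beside arrays labelled Runx1-KO. Colec12, a collectin-type scavenger receptor, was 116, 50.8 and 56.2 in arrays labelled Runx1-KO and 386, 51.0 and 311 in Control. Mertk, a receptor for bridging proteins on dying cells, read 45.7, 37.1 and 44.2 in arrays labelled Runx1-KO against 88.3, 40.2 and 87.7 in Control. Fn1, the fibronectin gene, was 1958, 1532 and 1514 in arrays labelled Runx1-KO and 2240.3, 252 and 1874 in Control, with Control 2 far below every array labelled Runx1-KO. In each of these 4 genes Control 2 was the lowest Control array, as it was for C1qb, while Adgre1 was highest there. Cd5l, a secreted macrophage protein, stood at 44.4, 30.4 and 41.6 in arrays labelled Runx1-KO and at 473, 76.4 and 86.5 in Control, with Control 1 the array of high erythroid signal.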
